A study of Mus musculus with 8 samples.

Results

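The genes described here encode the proteins of the cytosolic ribosome. They were taken as every probe, control spots aside, named Rpl or Rps with a number and at most 1 letter (a, l, x or y), or Rplp0, Rplp1, Rplp2 or Rpsa. The kinases named Rps6k were left out, and a gene with several probes was represented by its brightest. This gave 80 of the 22898 genes named on the array. A gene was tested if its probe stood well above background in both samples of 1 or more groups. Of the 16379 such genes 79 were ribosomal protein genes, 31 of the small subunit and 48 of the large. Rpl10l was the gene left out, since neither of its probes was well above background in any sample. The samples were total RNA of cortex and hippocampus from Tet1 KO and wild-type (WT) mice, naive animals on a 129 C57BL6 background, with 2 samples in each of the 4 groups. What was removed of Tet1, the age of the mice and whether replicates were separate animals are not in the labels. The p-values therefore speak only of the spread among these samples, which could be technical. KO RNA carried Cy5 and WT RNA of the same tissue and number carried Cy3 on each of the 4 arrays, with no dye swap, so for a KO over WT ratio genotype and dye cannot be told apart. Cortex over hippocampus was measured within 1 dye. All values are log2 signals or log2 ratios after normalization, and the few arrays limit their precision.

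A ribosome joins a small subunit, which reads the mRNA, to a large subunit, which forms the peptide bonds. Most ribosomal protein mRNAs belong to the TOP class: they begin with a C followed by a run of pyrimidines, and through that run mTOR signalling, by way of the RNA-binding protein LARP1, sets how strongly they are translated. Ribosomal protein mRNAs are among the most abundant in any cell. Many processed pseudogenes of these genes lie across the mouse genome, so a probe can be shared with a copy.

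The start regions of 8 of the 9 genes called in the tests below were read from RefSeq promoters (GRCm38.p6) because the TOP run is the feature that marks these mRNAs as a class. Each window holds 15 bases before the annotated start and 15 from it on, written along the gene's strand, with capitals for a C within 5 bases of the start and the pyrimidines after it where there are at least 4. The opposite strand was not searched, and no other motif was. Rpl21 is called below and has no window here.
Rps18, chr17:33955651-33955680, minus strand: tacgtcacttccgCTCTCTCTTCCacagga
Rpl27a, chr7:109519180-109519209, plus strand: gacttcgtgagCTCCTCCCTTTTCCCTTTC
Rps21, chr2:180257364-180257393, plus strand: taccgaggacccgCCCTCCTgcccaatagt
Rpl12, chr2:32961697-32961726, plus strand: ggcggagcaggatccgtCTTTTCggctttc
Rpl10, chrX:74270801-74270830, plus strand: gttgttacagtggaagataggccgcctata
Rpl37, chr15:5116598-5116627, plus strand: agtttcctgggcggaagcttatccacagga
Rpl11, chr4:136053379-136053408, minus strand: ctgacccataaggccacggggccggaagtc
Rpl39l, chr16:10170213-10170242, plus strand: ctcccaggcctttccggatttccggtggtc
Rps21, other start, chr2:180257434-180257463, plus strand: ggacaagtgagcaggtaggcctcggtgcgg
A run was found for Rps18, Rpl27a, Rpl12 and the first of 2 starts of Rps21. None was found in the windows of Rpl10, Rpl37, Rpl11 and Rpl39l or at the other start of Rps21. A run more than 5 bases from an annotated start would be missed, so the windows cannot show that an mRNA lacks one. The promoter table matched 59 of the 80 genes by symbol. A run occurred in 29 of their 71 promoters (40.8%), against 6027 of all 32851 promoters (18.3%). Counted by gene, 27 of 59 ribosomal protein genes had a run (45.8%), compared with 17 of 69 mitochondrial ribosomal protein genes (24.6%), 7 of 32 proteasome genes (21.9%) and 5718 of all 27025 genes (21.2%).

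Of the tissue markers, all 7 hippocampus markers were called lower in cortex than in hippocampus in both genotypes, and of 7 cortex markers 4 in KO and 5 in WT were called higher, with 1 lower in each. All 9 striatum markers were also called higher in cortex in both genotypes, with median log2 ratios of 2.33 in KO and 2.61 in WT. Their summed linear signal ranged over 152771 to 159705 in KO cortex against 179528 to 216201 in WT cortex, and over 24321 to 34513 in KO hippocampus against 28725 to 33044 in WT hippocampus. In cortex 9 of 9 had a KO over WT ratio below 0 (median -0.35), with 0 called by limma and 4 at an unadjusted p under 0.05. The targeted gene did not pass: Tet1 had a KO over WT log2 ratio between -0.23 and -0.10 on each array, with a mean of -0.18 and an adjusted p of 0.0802 (limma). Choroid plexus markers moved between samples of 1 group, with a median KO over WT log2 ratio of 0.51 and 2.06 in cortex and 0.04 and -2.77 in hippocampus. The mean ratio was above 0 for 13 of 13 of them in cortex and below 0 for 13 of 13 in hippocampus. Their summed linear signal ranged over 188278 to 290095 in KO cortex against 40838 to 167995 in WT cortex, and over 30212 to 44038 in KO hippocampus against 32040 to 434033 in WT hippocampus. On the replicate 2 hippocampus array thalamus markers had a median of -1.46. The part of these tissues in the results below was not tested.

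The ribosomal protein genes as a group showed no common shift with genotype that held on every array. Their median log2 signal was 16.11 and 16.14 in KO cortex against 16.17 and 16.11 in WT cortex, and 16.18 and 16.12 in KO hippocampus against 16.09 and 16.18 in WT hippocampus. In each tissue the KO and WT ranges overlapped. In bulk tissue, fewer cells of a type and less RNA per cell cannot be told apart. The median KO over WT log2 ratio of the 79 genes was -0.06 and -0.05 in cortex, and 0.14 and -0.001 in hippocampus. All genes tested had medians between 0.02 and 0.03 on the same arrays. The replicate 1 hippocampus array stood apart, with 63 of 79 genes above 0, against 31 on each cortex array and 39 on the replicate 2 hippocampus array. In the mean ratio of each tissue 31 were above 0 in cortex, where 58.4% of all genes were, and 54 in hippocampus, where 54.4% were. Averaged over both tissues 37 were above 0, where 56.4% of all genes were. On all 4 arrays 23 genes were above 0 (29.1%), where 28.1% of all genes were, and 13 below 0 (16.5%), where 17.7% were. Single genes kept much of their order from array to array: Spearman correlations between arrays, which share slide and dye orientation, were 0.63 to 0.81 across the 79 genes and 0.45 to 0.57 across all genes.

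**Figure D1:**
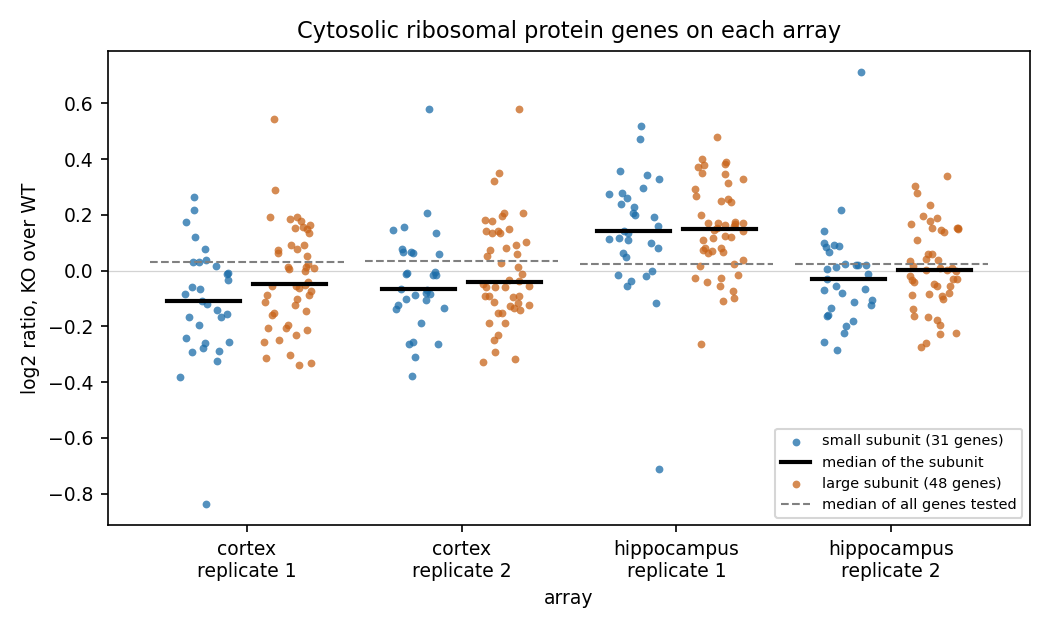
Log2 KO over WT ratio (vertical axis) of each ribosomal protein gene on the 4 arrays (horizontal axis), a point per gene coloured by subunit, with solid lines at each subunit's median and dashed lines at the median of all genes. The replicate 1 hippocampus array sits highest, with a median of 0.14, and the point far below the rest on both replicate 1 arrays is Rps2.

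Small and large subunit genes had close medians on each array. Median ratios of the 31 small subunit genes were -0.11 and -0.06 in cortex and 0.14 and -0.03 in hippocampus. For the 48 large subunit genes they were -0.05 and -0.04 in cortex and 0.15 and 0.003 in hippocampus. The small subunit lay below the large on all 4 arrays, by 0.06, 0.02, 0.006 and 0.03. No test of the gap was made.

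In the limma test of KO over WT averaged over both tissues, 5 of the 79 genes were called at an adjusted p of 0.05, 3 higher and 2 lower in KO. Over all genes tested, 11.1% were called, 7.19% higher and 3.88% lower, and the share of ribosomal protein genes called was no larger. The 3 higher genes, Rpl10, Rpl37 and Rpl11, were of the large subunit; of the 2 lower, Rps18 was of the small subunit and Rpl27a of the large. At an unadjusted p under 0.05 there were 26 of 79, against 5559 of all 16379 genes, a like share. Within cortex alone limma called 0, where 0.0611% of all genes were called, and 17 had an unadjusted p under 0.05, against 3483 of all genes. Within hippocampus alone limma called 0, where 0.0183% of all genes were called, and 14 had an unadjusted p under 0.05, against 3898 of all genes.

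Rpl10, which sits close to the peptidyl transferase centre, was the gene with the smallest adjusted p. Its log2 signals were 17.26 and 17.26 in KO cortex against 17.06 and 17.08 in WT cortex, and 17.27 and 17.24 in KO hippocampus against 16.88 and 16.90 in WT hippocampus. KO and WT samples did not overlap in either tissue. The mean log2 ratio was 0.27 ± 0.04 (SE, 4 arrays), a fold of 1.21, with an adjusted p of 0.0376 (limma). Its probe lies at chrX:71518307-71518366 (mm9), and its other probes gave 0.36 and 0.17.

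Rpl37, a zinc-finger protein of the large subunit, had log2 signals of 17.29 and 17.33 in KO cortex against 17.10 and 17.12 in WT cortex, and 17.49 and 17.30 in KO hippocampus against 17.09 and 17.02 in WT hippocampus. Here too every KO sample was above every WT sample. The mean ratio was 0.27 ± 0.05 with an adjusted p of 0.0418 (limma), from its only probe, at chr15:5068594-5068654. Rpl11, which with Rpl5 and 5S rRNA can bind Mdm2 and so stabilise p53, had 17.05 and 16.99 in KO cortex against 16.95 and 16.85 in WT cortex, and 17.16 and 17.05 in KO hippocampus against 16.77 and 16.74 in WT hippocampus. Its lowest KO sample was only just above its highest WT sample. The mean ratio was 0.23 ± 0.05 with an adjusted p of 0.048 (limma) at chr4:135605902-135606224. Its other probes gave -0.07 and 0.20, so they did not share a direction.

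Rps18, a protein of the small subunit's head, had log2 signals of 15.09 and 15.09 in KO cortex against 15.47 and 15.47 in WT cortex, and 15.25 and 15.17 in KO hippocampus against 15.36 and 15.46 in WT hippocampus. KO lay below WT in every sample. The mean ratio of -0.29 ± 0.05 was a fold of 0.818, with an adjusted p of 0.0418 (limma), from the probe at chr17:34089041-34089202. Its second probe gave 0.05. Rpl27a had 15.76 and 15.81 in KO cortex against 16.10 and 16.11 in WT cortex, and 15.94 and 15.82 in KO hippocampus against 16.04 and 16.04 in WT hippocampus, again with no overlap. Its mean ratio was -0.24 ± 0.05 with an adjusted p of 0.0493 (limma), at chr7:116664097-116664156. After median centring in place of loess, and relative to the median of all genes, the ratio was 0.12 for Rps18 and 0.24 for Rpl27a, above 0. None of the 5 calls was kept with any 1 array left out, with the scanner software's processed signals, or with every local background kept. Without 1 array at most 1 of all 16379 genes was called, against 1813 with all 4.

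**Figure D2:**
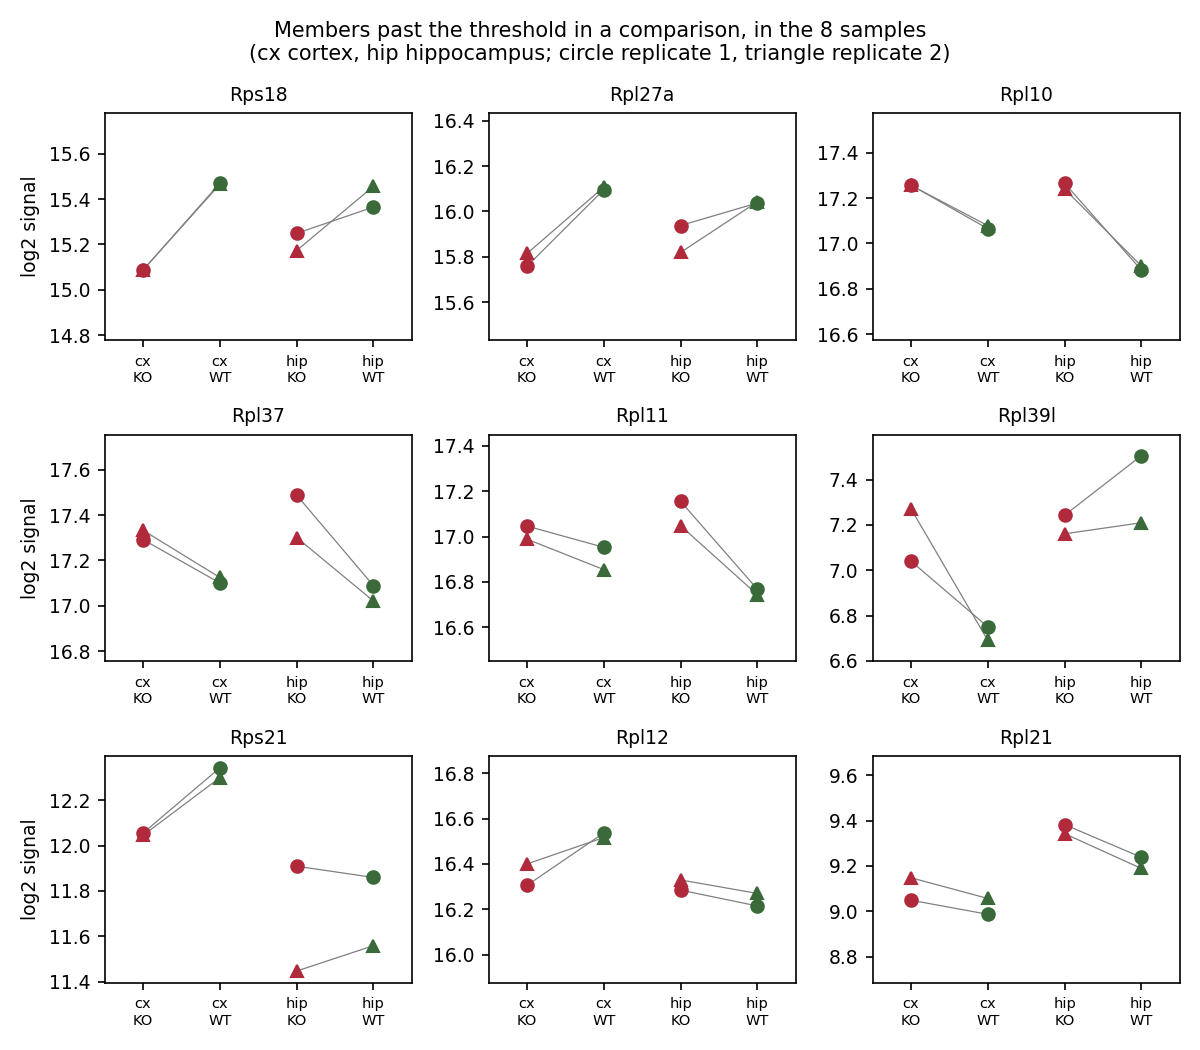
Log2 signal (vertical axis) in each of the 8 samples for the genes called in a test, a panel per gene on its own scale, with KO left of WT in each tissue and a line joining the samples of 1 array. For Rpl10 and Rpl37 all KO points lie above the WT points, and for Rps18 and Rpl27a below them.

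The other genes at the ends of the ranking by mean ratio did not pass. Rpl13 had a mean ratio of -0.25 (adjusted p = 0.0546), Rpl36a -0.19 (0.0613) and Rps3 of the mRNA entry site -0.21 (0.0784), all by limma. That Rpl13 probe lies on chromosome 4 and the RefSeq gene on chromosome 8. Rpl13 probes on chromosome 8 gave -0.12 and -0.11, and the other on chromosome 4 gave -0.03. Other probes gave -0.06 and -0.20 for Rpl36a, and -0.11 and 0.08 for Rps3. On the other side, Rpl29 had 0.30 (0.0905), the highest of the 79, Rps14 0.27 (0.0617) and Rps24 0.27 (0.092), again by limma. The other Rpl29 probe gave -0.19, below 0 on each array, and the other Rps24 probes gave 0.13, 0.06 and -0.20. The acidic stalk proteins, which recruit translation factors, had -0.06 for Rplp0, -0.04 for Rplp1 and 0.17 for Rplp2. Rpsa, also known as the laminin receptor, had -0.12, and its other probes gave 0.05, -0.20 and -0.04. Rps6, the substrate of S6 kinase downstream of mTOR, had 0.12, and its other probes gave -0.12 and -0.28. Rps4x, whose human counterpart is X-linked with a Y-linked copy, had -0.0009, and Rpl22 had -0.08. None of these passed the test, with adjusted p between 0.0546 and 0.991.

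Several ribosomal proteins have a paralogue with a narrower expression. Rpl3l, known from skeletal muscle and heart, and Rpl39l, known from testis, were not well above background in any WT group. Both were kept through their KO groups alone, so no KO over WT fold is given for them. Over all spots that are no controls, 66.6% to 67.2% were well above background in the KO channels and 49.7% to 51.7% in the WT channels. Their widely expressed counterparts Rpl3 and Rpl39 had mean ratios of 0.03 and -0.17. Rps27 had -0.06, from a probe on another chromosome than its RefSeq gene, and Rps27l, a p53 target, had -0.01.

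Among ribosomal protein genes the ratio differed with signal. Ribosomal protein probes were bright: 73 of 79 were among the brightest 10% of genes tested. Split by mean signal, the brightest 26 genes had a median ratio of 0.15, with 20 above 0. The middle 26 had -0.05, with 11 above 0, and the dimmest 27 had -0.05, with 6 above 0. The 100 other genes in the range of the brightest group had a median of 0.17, with 83 above 0. The 211 others in the middle range had 0.05, with 65.4% above 0, and the 14600 in the dimmest range had 0.02, with 54.2% above 0. The dimmest range ran from a signal of 7.11 to 15.71 and took in most genes tested, so those genes were not matched in signal. In the range of the brightest group other genes were thus above 0 as well, while the brightest 10% of all genes tested had a median of 0.0005. By array, the brightest ribosomal protein genes had 0.08 and 0.08 in cortex and 0.29 and 0.09 in hippocampus, and the 100 others had 0.19 and 0.20 in cortex and 0.12 and 0.18 in hippocampus. Rpl10, Rpl37 and Rpl11 were all in the brightest group. Across the 79 genes, which share arrays, dye orientation and loess curve, the mean ratio and the signal had a Spearman correlation of 0.53 and a Pearson correlation of 0.12. Across all genes these were -0.18 and -0.14. With median centring in place of loess the Pearson correlation was 0.89 across ribosomal protein genes and 0.83 across all genes. Correlation with the probe's GC content was -0.001 across ribosomal protein genes and -0.23 across all genes (Pearson).

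**Figure D3:**
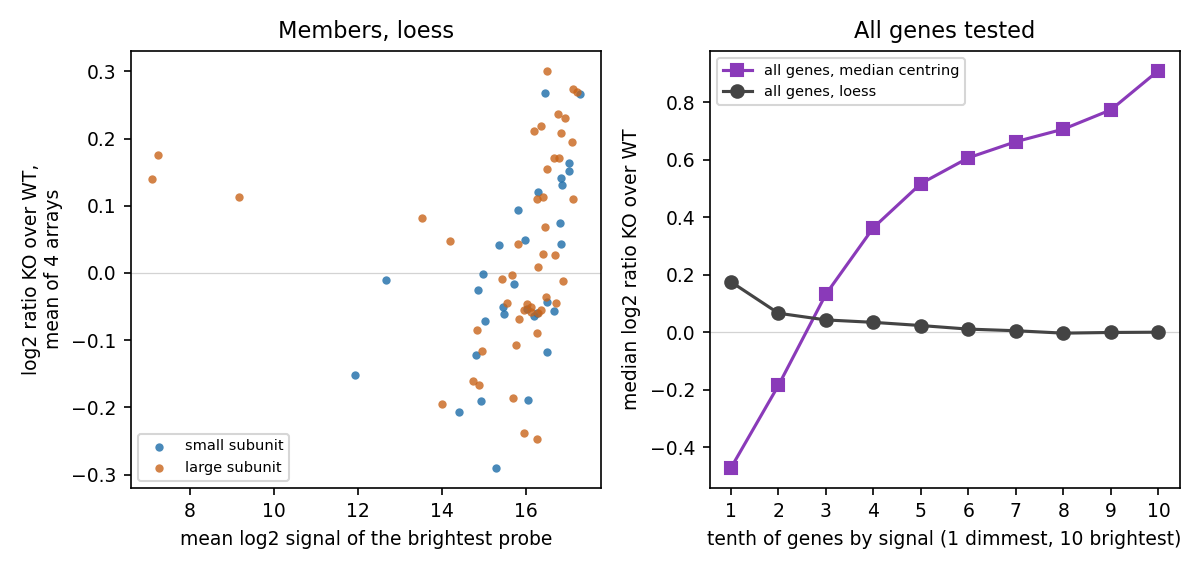
Left, the mean log2 KO over WT ratio of each ribosomal protein gene (vertical axis) against its mean log2 signal (horizontal axis), where genes above a signal of 16.47 have a median ratio of 0.15. Right, the median ratio of all genes tested in each of 10 groups by signal, dimmest to brightest. It runs from -0.47 to 0.91 with ratios centred only on the median of all non-control spots. With loess it stays near 0 in the brighter groups.

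Rps2, a protein of the mRNA entry tunnel, was singled out after its values were seen, because it followed the replicate number and not the tissue. Its log2 signals were 15.59 and 16.66 in KO cortex against 16.43 and 16.08 in WT cortex, and 15.63 and 16.75 in KO hippocampus against 16.34 and 16.04 in WT hippocampus. KO over WT was -0.84 and -0.71 on the replicate 1 arrays of cortex and hippocampus, and 0.58 and 0.71 on the replicate 2 arrays. The gap between numbers was 1.42 in each tissue. Such a pattern, below -0.5 on both replicate 1 arrays and above 0.5 on both replicate 2 arrays, occurred in 4 of 16379 genes (0.0244%), and its opposite in 7 (0.0427%). Both Rps2 probes differed by number: the second gave -0.11 and 0.04 on replicate 1, and 0.67 and 0.85 on replicate 2. The brightest lies at chr17:42864841-42864900 and the second at chr17:24857583-24857642, 18007300 bases apart. The RefSeq start of Rps2 falls in chr17:24720048-24720077 of GRCm38.p6, a later build than the mm9 of the probes. That is near the second probe and far from the brightest. Whether both probes read transcripts of 1 gene was not tested.

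Probes of a gene often differed. For 55 genes at least 2 probes passed the background filter, and in 29 of them the probes did not all have 1 sign. The brightest and second brightest probes had a Pearson correlation of 0.30 across these genes, with a median gap of 0.12. The gap between the highest and lowest probe was over 0.5 for 5 genes, namely Rps3a at 1.47, Rpl31 at 0.76, Rps25 at 0.56, Rps13 at 0.51 and Rpl39 at 0.51. In 4 of them the probes were opposite in sign.

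Rps3a, near the mRNA exit of the small subunit, had the widest gap. Its 3 probes are shown because the sequences of the first and the third overlap. Capitals mark the longest stretch shared by the first and the third.
A_55_P2056190, chr3:85942435-85942494: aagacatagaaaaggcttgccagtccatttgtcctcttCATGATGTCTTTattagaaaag
A_55_P2136385, chr3:85943041-85943100: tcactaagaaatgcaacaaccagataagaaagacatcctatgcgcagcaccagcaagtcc
A_51_P292357, chr3:85942027-85942458: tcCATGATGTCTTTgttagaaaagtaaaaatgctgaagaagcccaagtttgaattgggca
The first and second probes both had a mean KO over WT ratio of -0.19. The third had -1.68 and -1.65 in cortex, and -1.50 and -1.78 in hippocampus. All 4 arrays thus placed it far below the other probes. The last 24 bases of the first probe overlap the first 24 of the third, with 22 alike. The differences are T38C and A51G, given as the first probe's base, its position from the 5′ end of the first probe, and the third probe's base.

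Other gaps had a dim probe in them. Rpl31 had -0.09, -0.12, -0.12 and -0.27 from 4 probes and 0.49 from a dim one. Rps25 had 0.04 from its brightest probe and -0.51 from a dim second. Both probes of Rps13 were bright, at 0.05 and -0.46. For the second, the ratios were -0.80 and -0.65 on the replicate 1 arrays of cortex and hippocampus, and -0.21 and -0.19 on the replicate 2 arrays. The brightest probe lay on another chromosome than the RefSeq gene for 3 of 78 genes: Rpl13 (4 against 8), Rps27 (9 against 3) and Rps29 (2 against 12). Only chromosomes were compared, so the distant brightest probe of Rps2 is not counted there. All 4 probes of Rps27 lay on chromosome 9, and all 3 of Rps29 on chromosome 2. Whether these probes read transcripts of the named genes was not tested.

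**Figure D4:**
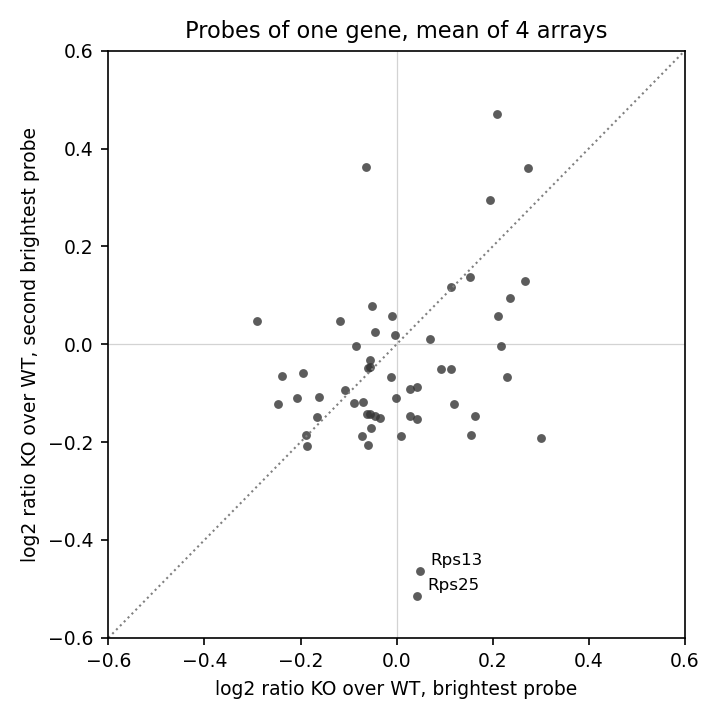
Mean log2 KO over WT ratio of the second brightest probe (vertical axis) against the brightest probe (horizontal axis), a point per gene with 2 probes that passed. Points scatter widely about the diagonal (Pearson 0.30), and Rps13 and Rps25 lie near 0 on the horizontal axis and near -0.5 on the vertical.

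Cortex and hippocampus were compared in each genotype. In KO, 1 of the 79 genes was called, lower in cortex, where 15% of all genes were called, 7.41% lower. In WT, 3 were called, 2 higher and 1 lower in cortex, where 15.2% of all genes were called, 7.29% higher and 7.91% lower. Neither share of ribosomal protein genes exceeded that of all genes. Rps21, a small subunit protein, had log2 signals of 12.06 and 12.04 in KO cortex against 11.91 and 11.45 in KO hippocampus. The cortex over hippocampus log2 ratio was 0.37 ± 0.15 (SE) with an adjusted p of 0.159 (limma). In WT it had 12.34 and 12.30 in cortex against 11.86 and 11.56 in hippocampus, a ratio of 0.61 ± 0.15 and a fold of 1.53, with an adjusted p of 0.0374 (limma). Cortex was above hippocampus without overlap in both genotypes, and only the WT ratio passed.

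Rpl12, a protein at the base of the stalk, had 16.31 and 16.40 in KO cortex against 16.28 and 16.33 in KO hippocampus, and these ranges overlapped. In WT it had 16.54 and 16.52 in cortex against 16.21 and 16.27 in hippocampus, a ratio of 0.28 ± 0.07 and a fold of 1.22 (adjusted p = 0.0354, limma), with no overlap. Rpl21 had 9.05 and 9.15 in KO cortex against 9.38 and 9.34 in KO hippocampus, a ratio of -0.26 ± 0.07 and a fold of 0.833 (adjusted p = 0.0467, limma). In WT it had 8.99 and 9.06 in cortex against 9.24 and 9.19 in hippocampus, a ratio of -0.19 with an adjusted p of 0.12 (limma). Rpl39l was the gene called lower in WT cortex (adjusted p = 0.0148, limma), but in WT its probe was not well above background in either tissue, so no fold is given. The calls of these 4 genes were not kept with either cortex array left out. That leaves a single cortex sample per genotype, and fewer of all genes were called too, so it cannot single out these genes. The difference of these ratios between genotypes is the difference of the KO over WT ratios between tissues, for which limma called 0 genes. Among genes at the ends of the WT ranking that were not called, Rpl5 had 0.38 and Rpl35 0.30, against -0.21 for Rpl8 and -0.17 for both Rpl18 and Rplp0.

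As a group the ribosomal protein genes lay further towards hippocampus than all genes in KO and further towards cortex in WT, the KO part being unstable. In KO 23 of 79 were above 0 with a median of -0.05, where 46.9% of all genes were above 0 with a median of -0.01. In WT 65 of 79 were above 0 with a median of 0.09, where 44.7% of all genes were above 0 with a median of -0.03. Both KO cortex samples were above both KO hippocampus samples for 4 genes, where 28.6% of all genes were, and below for 25, where 31.8% were. Without the replicate 1 hippocampus array the KO median was -0.005, against -0.008 for all genes, with 36 above 0. With every local background kept it was -0.001, against -0.05 for all genes, with 39 above 0. Both WT cortex samples were above both WT hippocampus samples for 34 genes, where 24.4% of all genes were, and below for 4, where 31.6% were.

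**Figure D5:**
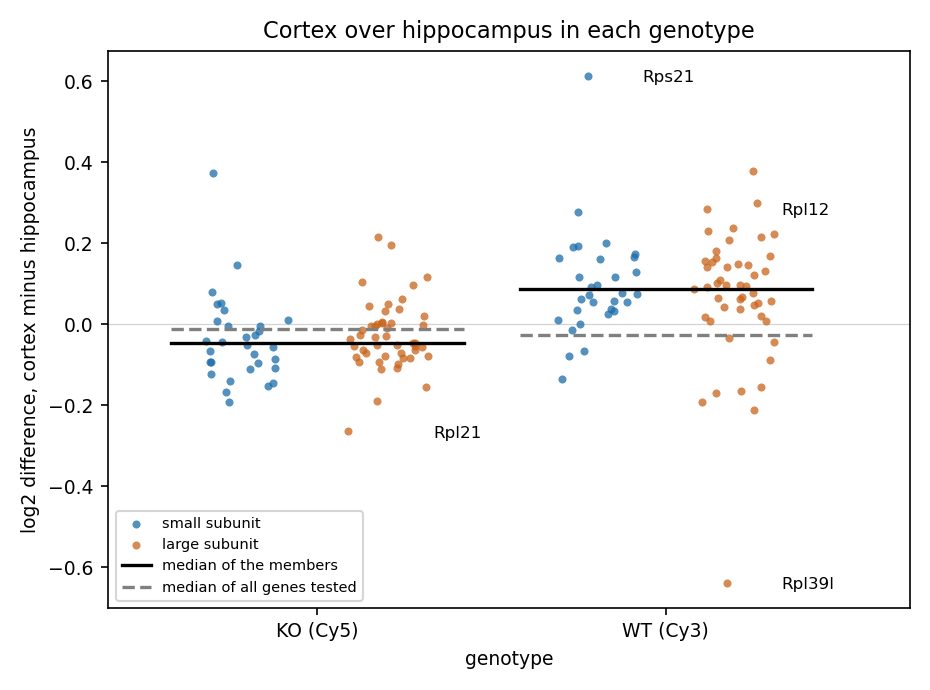
Cortex over hippocampus log2 ratio (vertical axis) of each ribosomal protein gene in KO and in WT (horizontal axis), a point per gene coloured by subunit, with solid lines at the median of these genes and dashed lines at the median of all genes. In KO 23 of 79 genes lie above 0 and in WT 65 do, and Rps21, at 0.37 in KO and 0.61 in WT, lies highest.

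The same contrast seen as KO over WT, cortex minus hippocampus, had a median of -0.13 for ribosomal protein genes and 0.008 for all genes. It was below 0 for 70 of 79 ribosomal protein genes, 30 of 31 small and 40 of 48 large, where 47.3% of all genes were below 0. No gene was called by limma: 0 of 79 and 0% of all genes, with 1 and 742 at an unadjusted p under 0.05. On both cortex arrays below 0 and on both hippocampus arrays above 0 were 7 genes, where 2.33% of all genes were. The 1 gene the other way was Rpl39l, whose probe was not well above background in any WT sample. Of all genes 3.32% were the other way. The size moved with single arrays: without the replicate 1 hippocampus array the median was -0.05, with 24 of 79 above 0, and the WT cortex over hippocampus median was 0.02, with 50 above 0. Without the replicate 2 hippocampus array the median was -0.21. With every local background kept, the median was -0.05 against -0.08 for all genes, so the direction relative to all genes turned. In the same contrast 13 of 13 choroid plexus, 6 of 6 thalamus, 11 of 12 neuron, 10 of 11 oligodendrocyte and 8 of 9 endothelial and mural markers were above 0. Below 0 were 11 of 11 microglia and 8 of 9 striatum markers. The part of these cells and tissues in the result was not tested.

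Other genes of translation were set beside them. Of 36 initiation factors 3 were called higher and 1 lower in KO averaged over both tissues, with a median of -0.02. Over all genes 11.1% were called by limma in that mean, 7.19% higher and 3.88% lower, and 5559 of 16379 had an unadjusted p under 0.05. None of 11 elongation and termination factors, 17 other TOP mRNAs or 31 mTOR pathway genes passed in that limma test, with medians of -0.05, -0.04 and 0.05, and 1, 3 and 6 had an unadjusted p under 0.05. Of 59 ribosome biogenesis genes 3 were called higher and 0 lower, and of 73 mitochondrial ribosomal protein genes 5 higher and 1 lower. Of 37 proteasome subunits 1 was called higher and 3 lower, and of 78 oxidative phosphorylation genes 4 higher and 1 lower. In the difference between tissues, the other TOP mRNAs had a median of -0.07 with 13 of 17 below 0. Mitochondrial ribosomal protein genes had -0.03 with 49 of 73 below 0, biogenesis genes -0.02 with 35 of 59, and oxidative phosphorylation genes 39 of 78. Of all genes 47.3% were below 0 in that difference. In cortex over hippocampus in WT, where ribosomal protein genes leaned towards cortex, 42 of 59 biogenesis genes were below 0, with a median of -0.08. Of all 16379 genes 9057 were below 0 there, with a median of -0.03. So were 27 of 37 proteasome, 45 of 73 mitochondrial ribosomal protein, 39 of 78 oxidative phosphorylation and 7 of 17 other TOP genes. In KO 47 of 59 biogenesis genes were below 0, against 8705 of all genes.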

How the data were processed

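Each of the 8 samples was 1 channel of a 2-colour Agilent array, labelled from 0.5 µg RNA. The authors deposited scanner output, in which each spot has an intensity per channel; per the file headers it came from Feature Extraction 10.1.1.1. The authors also deposited a table of log2 values. The submitters' processing notes name limma; the version is not given in the sources used here. Probe positions are mm9, per the file headers.

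Here intensities were corrected with normexp (offset 50), after local backgrounds marked as non-uniform outliers were replaced by the array's median (166 Cy5 spots on the replicate 1 cortex array). Ratios were normalized by loess (span 0.3), and the 1377 control spots had no weight. Spots of a probe were averaged without outlier flags, which left out 29 genes. KO over WT was tested with limma 3.58.1 (R 4.3.3) on 4 array ratios. Tissues were compared in a separate-channel fit after Aquantile normalization, with an intraspot correlation of 0.19. P-values were adjusted over all 16379 genes (Benjamini-Hochberg). Both tests were checked on simulated data.

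The members, lists and tests were chosen with earlier results of these data known. Replacing outlying backgrounds follows an earlier account that chose it after seeing gene counts. In first versions here, backgrounds under either outlier mark were replaced and LOC and accession names were kept as genes; both were changed after the members' values were seen, and are now alternatives, with the same number of members called. The second-brightest-probe alternative, Rps2 with its replicate rule, and the printed sequences were chosen after values were seen. Named genes were those called in a test, the 5 highest and 5 lowest by mean KO over WT ratio and by WT tissue ratio, a set list of stalk proteins, paralogue pairs, Rpsa, Rps6, Rpl22, Rps4x and Tet1, and up to 3 examples of disagreeing probes. Other probe gaps and probe locations were added after values were seen. Samples were grouped by their labels, and pairs of deposited files of 1 array were identical. No spot of these genes was saturated. A result of 1 gene that the rule names is not reported here.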

Additional observations from a re-analysis of the deposited data

Results flagged for a closer look

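Among the named genes, 5 had a KO over WT ratio of one sign on both arrays of one tissue and of the opposite sign on both arrays of the other. The difference, cortex minus hippocampus, was -0.239 for Rpl12, -0.230 for Rpl3, -0.129 for Rps13, -0.201 for Rps25 and 0.591 for Rpl39l, which is no measured difference, its probe being not well above background in any WT sample. The limma test of this difference called 0 of 79 genes, with 1 at an unadjusted p under 0.05. Groups of 2 samples are too small for a test of single outlying samples.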

How the results depend on the processing

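All 5 KO over WT calls were lost under at least 1 alternative; the cause was not tested unless named. The count of ribosomal protein genes called for KO over WT averaged over both tissues was 5 in the main processing. It was 0 with the scanner software's processed signals (1179 of all genes) and 0 with every local background kept (where 3 of all genes were called against 1813). It was 13 with an intensity trend and robust prior variance (2242 of all genes) and 8 with the deposited value table (2350 of all genes). Median centring gave 72 (10254 of all genes). The second brightest probe, which was chosen after seeing the data, gave 2 (634 of 4495 genes). Median centring left the intensity dependence in place. Ratios were first centred on the median of all non-control spots, and the median of the genes tested was then 0.49 to 0.58 on each array. That median was subtracted before the tests. They called 57 ribosomal protein genes in cortex (7171 of all genes) and 73 in hippocampus (8154 of all genes). For cortex over hippocampus in KO the count of 1 became 0 with every background kept, an intensity trend, no filter on dim probes or the second probe. Of all genes 2003, 2629, 2085 and 409 were then called, in that order, against 2462. In WT it was 1, against 3, with the second probe (481 of all genes, against 2489). A channel fit that has no replicate block of KO and WT on 1 array was also made. It called 1 ribosomal protein gene in hippocampus (428 of all genes) and 8 in the mean of both (2372 of all genes). The labels give replicate numbers but do not say that they pair the tissues. Over all genes the deviations of same-numbered log ratios had a correlation of 0.16 (0.24 for KO signals and -0.09 for WT signals). For the ribosomal protein log ratios it was 0.76, or 0.18 without Rps2. With the replicate block, 0 ribosomal protein genes were called in either tissue comparison. Of all genes 1633 were then called in KO and 1680 in WT, against 2462 and 2489 in the main processing. Leaving out 1 array gave 0 to 0 calls in the mean of both tissues and 0 to 4 in each tissue comparison; the intraspot correlation of all arrays was kept there.

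Relative to all genes, the median ratio of ribosomal protein genes was turned by keeping every background to 0.058 in cortex, 0.054 in the mean of both tissues, 0.028 in cortex minus hippocampus and 0.051 in KO tissues, and gave 0.032 in WT tissues. The scanner software's processed signals gave -0.156 in cortex against -0.091, -0.037 in hippocampus against 0.027, and -0.099 in the mean against -0.035. Median centring gave 0.346 in cortex, 0.561 in hippocampus, 0.448 in the mean, and -0.020 for small minus large subunit. The second probe gave -0.188, -0.055, -0.116 and, in WT tissues, 0.076. Without 1 array the range was -0.220 to -0.052 in cortex minus hippocampus, -0.025 to 0.119 in hippocampus, -0.060 to 0.0033 in KO tissues, 0.059 to 0.137 in WT tissues and -0.066 to -0.010 for small minus large.

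Single mean ratios that changed sign were, with processed signals, Rpl3 at -0.073, Rps13 at -0.44, Rps25 at -0.042 and Rps4x at 0.062, and with the value table, Rps27l at 0.0014 and Rps4x at 0.0011. Every background kept gave Rpl39l -0.011, Rplp0 0.012, Rplp1 0.047, Rps27 0.033 and Rps4x 0.0066. The value of Rpl39l is no measured ratio, since its probe was not well above background in any WT group. The mean of probes gave Rpl39 0.0081, Rpl3 -0.032, Rps13 -0.21, Rps25 -0.24, Rps6 -0.095 and, between WT tissues, Rplp0 0.021. Median centring gave Rpl13 0.26, Rpl22 0.28, Rpl27a 0.24, Rpl31 0.41, Rpl36a 0.10, Rpl39 0.21, Rpl39l -0.92, Rpl3l -0.76, Rplp0 0.45, Rplp1 0.50, Rps18 0.12, Rps27 0.49, Rps27l 0.19, Rps3 0.12, Rps4x 0.38 and Rpsa 0.41. Those of Rpl39l and Rpl3l are likewise no measured ratios, and their change of sign is not read as a result. The second probe gave Rpl11 -0.066, Rpl29 -0.19, Rpl3 -0.091, Rps13 -0.46, Rps18 0.048, Rps25 -0.51, Rps6 -0.12, Rpsa 0.048 and, between WT tissues, Rpl8 0.050 and Rplp0 0.065. Without 1 array, Rplp0 ran from -0.14 to 0.020, Rplp1 from -0.11 to 0.018, Rps25 from -0.017 to 0.10, Rps27 from -0.15 to 0.034, Rps27l from -0.13 to 0.11, Rps4x from -0.033 to 0.031 and, between WT tissues, Rpl18 from -0.35 to 0.024.

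Arrays give no count of reads; signal over the negative controls was 1386 to 1565 times in KO and 160 to 193 times in WT at the members' median.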
